A study of Mus musculus with 4 samples.

Results

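The 10 genes described here belong to the BCL2 family, which sets whether a cell survives or dies through its mitochondria. They were chosen by name, as rows of the deposited table whose symbol is Bcl2, Bcl2l1 or Mcl1 (anti-apoptotic), Bax or Bak1 (effectors), or Bcl2l11, Bbc3, Pmaip1, Bid or Bmf (BH3-only), and they are 10 of the 16230 genes listed. Transcripts were sequenced from spleen cells sorted as CD3+CD4+ out of Rag-/- mice, which make no T or B cells of their own, 8 weeks after naive CD4 T cells had been injected and colitis had followed. In the CD4creERafl/fl group (2 libraries) the donor cells carried loxP-flanked alleles of Esr1, the gene of estrogen receptor α, together with a Cre recombinase expressed from Cd4 in T cells. In the ERafl/fl group (2 libraries) they carried the flanked alleles without Cre. Both groups thus share the flanked alleles, the Rag-/- host and the disease, and there was no group without colitis. The recipients keep their own myeloid, NK and red blood cells. The labels state no age or sex of the mice. They do not say whether each library is 1 mouse, a pool, or a repeat of the other. The p-values thus set the group difference only against the spread between libraries of a group, which can be technical.

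As background, the effectors Bax and Bak1 form pores in the outer mitochondrial membrane, through which cytochrome c leaves and starts the caspase cascade. Anti-apoptotic members hold the effectors in check, and BH3-only proteins relay stress signals by binding either side with a short helix, the BH3 region. In T cells, Bcl2 and Mcl1 keep resting and activated cells alive, and the BH3-only protein Bim, the product of Bcl2l11, removes many effector T cells as a response ends.

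The stretch that encodes the BH3 core ties the classes together and is shown for the 9 members with a single match. Coding sequences of GENCODE M21 (GRCm38) were translated and searched for a leucine codon, 3 codons of any kind, a glycine or alanine codon and an aspartate codon. All 10 members held the pattern, Pmaip1 at 2 places and the others at 1, and 23.9% of 21489 mouse coding genes held it at least once. Pmaip1 is not printed. The 6 codons of the pattern are in capitals, with 5 codons on each side.
Bcl2: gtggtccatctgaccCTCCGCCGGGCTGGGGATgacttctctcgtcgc
Bcl2l1: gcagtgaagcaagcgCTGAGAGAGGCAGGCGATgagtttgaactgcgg
Mcl1: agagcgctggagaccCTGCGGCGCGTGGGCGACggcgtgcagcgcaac
Bax: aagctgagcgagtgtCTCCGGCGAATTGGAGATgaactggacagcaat
Bak1: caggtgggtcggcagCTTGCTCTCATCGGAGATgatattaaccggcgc
Bcl2l11: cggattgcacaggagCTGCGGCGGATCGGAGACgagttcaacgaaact
Bbc3: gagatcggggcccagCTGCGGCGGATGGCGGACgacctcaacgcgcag
Bid: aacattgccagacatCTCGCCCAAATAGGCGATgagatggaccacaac
Bmf: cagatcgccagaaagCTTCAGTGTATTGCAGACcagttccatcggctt
Bbc3 and Bmf carry an alanine codon where the other 7 carry glycine. A match describes letters, and the proteins were not measured.

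Depth was low, and markers of several cell types differed in level between the groups, although limma called none of them at an adjusted p under 0.05. With voom weights on estimated fragments, an alternative chosen after seeing the data that calls 2.12% of 7257 genes higher and 0.744% lower, 13 of 16 macrophage markers tested were called higher and 9 of 12 T cell markers lower. Steps between low values gave an estimated 510000 and 568000 fragments in the libraries labelled CD4creERafl/fl 1 and 2, and 709500 and 677000 in ERafl/fl 1 and 2. The table gives FPKM, fragments scaled to transcript length and to each library's mapped fragments, and 1 fragment on a transcript of 2000 bases is worth 0.719 to 1.0 FPKM. Esr1 was listed at 0 and had 1.96 FPKM in the libraries labelled CD4creERafl/fl, against 0.23 and a listed 0 in ERafl/fl, so it does not check the labels, and the group is called by its label throughout. All 20 T cell markers had lower means in the libraries labelled CD4creERafl/fl, with summed levels of 461 and 413 FPKM against 2067 and 1588, and none was listed at 0. Cd4, used for the sort, had 52.6 and 52.4 FPKM there, against 154.8 and 128.1. Genes of CD3, also used for the sort, differed by unlike amounts. Cd3e had 9.81 and 10.07 FPKM, against 65.48 and 60.22, and Cd3g 25.86 and 26.8, against 201.5 and 187.4. Cd3d had 123.6 and 70.94, against 177.5 and 146.2. All 18 macrophage and monocyte markers had higher means, summing to 2906 and 3414 FPKM against 104 and 501, with Adgre1, Cd14, Mertk, Marco and Fcgr1 listed at 0 in ERafl/fl 1. Summed levels were 5779 and 7741 against 2079 and 4352 FPKM for 13 neutrophil markers (Ly6g and Elane at 0 in ERafl/fl 1), and 3199 and 3266 against 122 and 1058 for 12 dendritic cell markers (5 at 0 in ERafl/fl 1, of which Clec10a also in ERafl/fl 2). Of the dendritic cell sums, Cd74 alone made 2406 and 2251 FPKM, against 37.36 and 635.6. Of these 12 markers 8 were higher and 1 lower without overlap, and 3 overlapped. The lower one was Xcr1, with 46.67 and 48.48 FPKM against 73.35 and 62.79. Summed levels were 101 and 202 against 48.1 and 84.2 for 10 NK cell markers, of which 6 had higher means and 4 lower (Klrd1 and Klra4 at 0 in the first library labelled CD4creERafl/fl, and Ncr1, Klra8 and Klra4 at 0 in both ERafl/fl libraries). For 6 B cell markers they were 208 and 96.0 against 69.9 and 93.7, mostly Cd22, while Fcer2a had 1.27 and 10.96 against 17.49 and 16.55 (Cd79a and Ms4a1 at 0 in 3 libraries each). For 13 erythroid markers they were 6552 and 5148 against 229 and 8255. The part these cells play in the values of the BCL2 family was not tested. In bulk RNA, fewer cells of a type and less RNA per cell cannot be told apart.

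Among the 10 members, 4 BH3-only genes had higher values in both libraries labelled CD4creERafl/fl than in both ERafl/fl libraries, and Bcl2l1 and Bak1 had lower values in both. None of the 10 differed at an adjusted p under 0.05 in limma, a linear model across all genes on log2(FPKM + 1), and 1, Bbc3, had an unadjusted p under 0.05. Of the 12896 genes tested, 2 were higher (0.0155%) and 5 lower (0.0388%) at that adjusted threshold. At an unadjusted p under 0.05, 9.1% were higher and 6.8% lower. Groups without overlap were common across the table too. Both CD4creERafl/fl values were above both ERafl/fl values for 23.2% of tested genes and below them for 25.7%, or 48.9% together, beside 4, 2 and 6 of the 10 members. Means were higher for 46.4% of tested genes and for 5 of the 10 members. Median log2 fold changes, CD4creERafl/fl minus ERafl/fl, were 0.84 for the 5 BH3-only genes, -0.75 for the 2 effectors and -0.18 for the 3 anti-apoptotic genes, beside -0.07 for all genes tested. The anti-apoptotic median was 0.33 without ERafl/fl 1, 0.09 without the first library labelled CD4creERafl/fl, -0.76 without ERafl/fl 2 and -0.45 without the second library labelled CD4creERafl/fl. All 10 members passed the filter of a mean of 1 FPKM, Bmf narrowly at 1.45 FPKM.

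**Figure D1:**
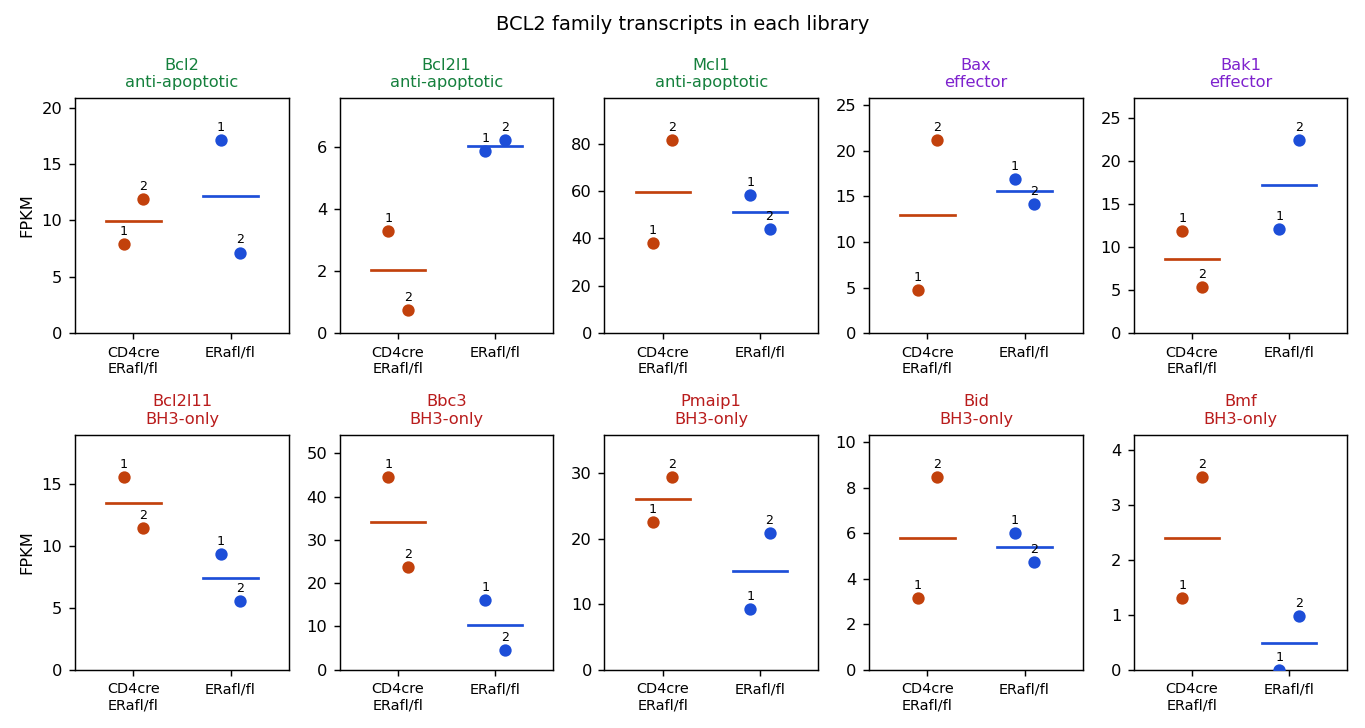
FPKM of each member (y axis, from 0, with its own scale in each panel) in the libraries labelled CD4creERafl/fl (left, orange) and ERafl/fl (right, blue). Points are single libraries marked by their number and lines are group means. Bcl2l11, Bbc3, Pmaip1 and Bmf lie higher without overlap, Bcl2l1 and Bak1 lower, and the other 4 members overlap.

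Among the anti-apoptotic members, Mcl1 was the most abundant and Bcl2l1 the one whose groups were apart. Other anti-apoptotic genes, such as Bcl2a1b described below, are not members. Mcl1 encodes a short-lived protein that lymphocytes need to survive (NCBI gene 17210; GRCm38 chromosome 3, 95658788 to 95663176). It had 37.98 and 81.45 FPKM in the libraries labelled CD4creERafl/fl and 58.23 and 43.99 in ERafl/fl. The CD4creERafl/fl values enclosed both ERafl/fl values, and the log2 fold change was 0.14 ± 0.44 (SE, n = 2 each; limma adjusted p = 0.903), with a 95% interval from -0.97 to 1.24. It made up 77.2% and 86.6% of the summed anti-apoptotic FPKM, against 71.7% and 76.7%.

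Bcl2, the founding member that protects resting T cells (NCBI gene 12043; chromosome 1, 106538178 to 106714274), had 7.9 and 11.9 FPKM in the libraries labelled CD4creERafl/fl and 17.09 and 7.14 in ERafl/fl. The highest and the lowest value both came from ERafl/fl. The log2 fold change was -0.18 ± 0.52 (SE, n = 2 each; limma adjusted p = 0.89), with an interval from -1.48 to 1.12. Its exons share 558 bases with D630008O14Rik on the opposite strand, and no source used here says whether counting used strand, so the value is uncertain.

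Bcl2l1, which encodes BCL-XL, the survival protein induced on T cell activation (NCBI gene 12048; chromosome 2, 152780668 to 152831728), had 3.29 and 0.74 FPKM in the libraries labelled CD4creERafl/fl and 5.85 and 6.2 in ERafl/fl. Both ERafl/fl values lay above both others and close together, while the CD4creERafl/fl values were far apart. The log2 fold change of -1.36 ± 0.60 (SE, n = 2 each) had an interval from -2.86 to 0.13 and an adjusted p of 0.349 in limma. On the shorter listed transcript of known length (2417 bases), these levels correspond to about 3.99 and 0.999 fragments against 9.87 and 9.98. The difference thus rests on a few fragments, and the second library labelled CD4creERafl/fl lies under 3, the number that a count of 0 still allows. Without the first library labelled CD4creERafl/fl the log2 fold change was -2.01, and without the second it was -0.71.

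The effector genes had lower means, with overlap for Bax. Bax encodes the effector that moves from the cytosol to mitochondria on activation (NCBI gene 12028; chromosome 7, 45461697 to 45466898). It had 4.71 and 21.17 FPKM in the libraries labelled CD4creERafl/fl and 16.94 and 14.21 in ERafl/fl, on about 1.99, 9.94, 9.94 and 7.96 fragments. The first library labelled CD4creERafl/fl was low and the second high, with ERafl/fl between them. The log2 fold change was -0.55 ± 0.68 (SE, n = 2 each; limma adjusted p = 0.726), with an interval from -2.26 to 1.15, and it was 0.42 without the first library labelled CD4creERafl/fl and -1.53 without the second. Bax shares 192 exon bases with Gm45808 on the same strand.

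Bak1, the effector that resides in the outer mitochondrial membrane (NCBI gene 12018; chromosome 17, 27019810 to 27029009), had 11.89 and 5.34 FPKM in the libraries labelled CD4creERafl/fl and 12.1 and 22.4 in ERafl/fl. The groups did not overlap, but 11.89 and 12.1 FPKM, about 14.2 and 20.1 fragments at the depths of their libraries, are nearly the same level. Its log2 fold change of -0.95 ± 0.53 (SE, n = 2 each) had an interval from -2.27 to 0.37 and an adjusted p of 0.442 in limma. It was -1.47 without the first library labelled CD4creERafl/fl, -0.44 without the second and -0.54 without ERafl/fl 2. Exons of Ggnbp1 overlap Bak1 on the opposite strand, and Ggnbp1 was listed at 0 in all 4 libraries.

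**Figure D2:**
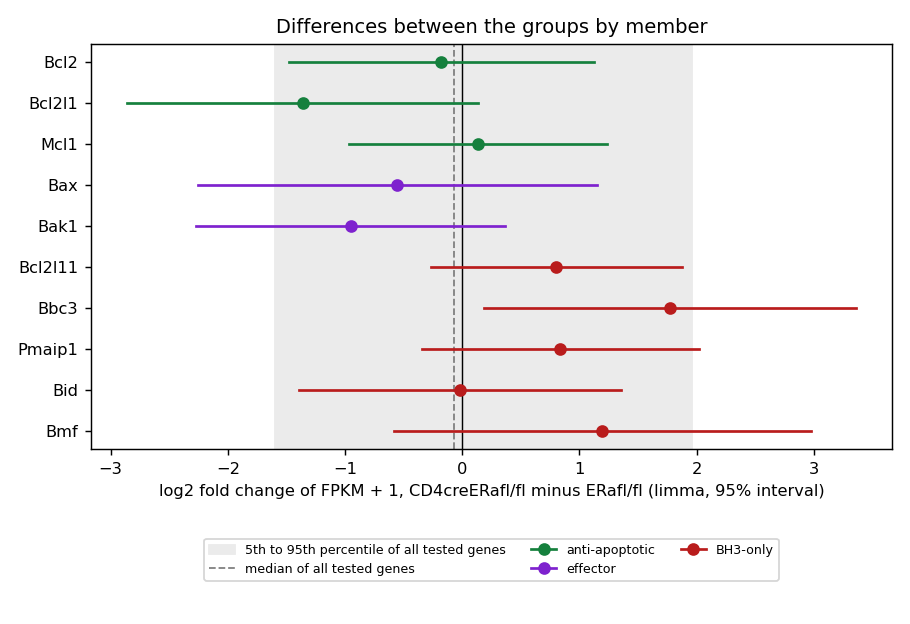
Log2 fold change of FPKM + 1, CD4creERafl/fl minus ERafl/fl (x axis), for each member, with the 95% interval from limma as a line (green anti-apoptotic, purple effector, red BH3-only). The grey band spans the 5th to 95th percentile of all 12896 tested genes and the dashed line is their median. Bbc3 has the only interval that leaves out 0, and all 10 estimates lie inside the band.

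The 4 highest estimates among the members were those of BH3-only genes. Bbc3 encodes PUMA, which binds all the anti-apoptotic members and is induced by p53 and by forkhead factors (NCBI gene 170770; chromosome 7, 16308393 to 16318205). It had 44.51 and 23.62 FPKM in the libraries labelled CD4creERafl/fl and 16.07 and 4.63 in ERafl/fl. Both CD4creERafl/fl values were above both ERafl/fl values, and the spread within each group was wide. The log2 fold change was 1.77 ± 0.64 (SE, n = 2 each), with an interval from 0.18 to 3.36, an unadjusted p of 0.0345 and an adjusted p of 0.279 in limma. About 40.3 and 23.8 fragments lay behind the CD4creERafl/fl values, against 20.2 and 5.56. With the voom weights, the adjusted p was 0.135. Leaving out ERafl/fl 2 gave a log2 fold change of 0.97 and leaving out ERafl/fl 1 gave 2.57. Without the first library labelled CD4creERafl/fl it was 1.33, and without the second 2.215. The size thus rests on which libraries are used.

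Bcl2l11, the gene of Bim (NCBI gene 12125; chromosome 2, 128126038 to 128162547), had 15.55 and 11.43 FPKM in the libraries labelled CD4creERafl/fl and 9.31 and 5.55 in ERafl/fl. Both CD4creERafl/fl values were above both ERafl/fl values, with 11.43 and 9.31 FPKM the nearest pair. Its log2 fold change was 0.80 ± 0.43 (SE, n = 2 each; limma adjusted p = 0.428), with an interval from -0.27 to 1.88, and it was 0.48 without ERafl/fl 2.

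Pmaip1, the gene of NOXA, which binds MCL1 and marks it for degradation (NCBI gene 58801; chromosome 18, 66458533 to 66465565), had 22.59 and 29.43 FPKM in the libraries labelled CD4creERafl/fl and 9.25 and 20.95 in ERafl/fl. ERafl/fl 2 came close to the first library labelled CD4creERafl/fl, and ERafl/fl 1 lay well below. Its log2 fold change was 0.84 ± 0.47 (SE, n = 2 each; limma adjusted p = 0.448), with an interval from -0.34 to 2.02. It was 0.29 without ERafl/fl 1 and 1.39 without ERafl/fl 2.

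Bmf, whose protein is held on the cytoskeleton until stress frees it (NCBI gene 171543; chromosome 2, 118528757 to 118549687), was the lowest member in 3 of the 4 libraries. It had 1.3 and 3.51 FPKM in the libraries labelled CD4creERafl/fl, against a listed 0 and 0.98 in ERafl/fl, on about 2.01, 6.06, 0 and 2.02 fragments for the shorter listed transcript. Both CD4creERafl/fl values were the higher ones, but of the 4 libraries only the second labelled CD4creERafl/fl exceeded 3 fragments on that transcript. The fitted log2 difference of 1.20 ± 0.71 (SE, n = 2 each; limma adjusted p = 0.472) depends on the pseudocount at such levels and was 2.77 with a pseudocount of 0.1. With 1 library left out it ran between 0.70 and 1.69.

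Bid, the BH3-only protein that caspase-8 cleaves to link death receptors to mitochondria (NCBI gene 12122; chromosome 6, 120891930 to 120916853), had 3.15 and 8.48 FPKM in the libraries labelled CD4creERafl/fl and 6.03 and 4.75 in ERafl/fl. It was the BH3-only gene whose groups overlapped, with ERafl/fl lying between both CD4creERafl/fl values. The estimate on the log2 scale was -0.02 ± 0.55 (SE, n = 2 each; limma adjusted p = 0.989), with an interval from -1.39 to 1.36. Its exons share 628 bases with Bcl2l13, another gene of the family, on the opposite strand, so its value is uncertain.

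Summed by class, the BH3-only genes reached 87.1 and 76.5 FPKM in the libraries labelled CD4creERafl/fl and 40.7 and 36.9 in ERafl/fl. The effectors summed to 16.6 and 26.5 FPKM, against 29.0 and 36.6. The anti-apoptotic genes summed to 49.2 and 94.1 FPKM, against 81.2 and 57.3. The first of these sums was higher without overlap, the effector sum lower without overlap, and the anti-apoptotic sum overlapped. Since FPKM is per length, sums can be divided within a library, and such a ratio does not change when a library is rescaled. BH3-only over anti-apoptotic FPKM was 1.77 and 0.813 in the libraries labelled CD4creERafl/fl and 0.501 and 0.643 in ERafl/fl. The divisor holds only Bcl2, Bcl2l1 and Mcl1. It leaves out the anti-apoptotic Bcl2a1b, which had 62.64 and 121 FPKM, against 49.4 and 37.12. A ratio with Bcl2a1b in the divisor was not computed, so the separation holds for the chosen members only. Leaving Mcl1 out of the divisor gave 7.78 and 6.05, against 1.77 and 2.76. Leaving Bbc3 out of the BH3-only sum gave 0.866 and 0.5617, against 0.303 and 0.5622, so that the groups overlapped. Bbc3 made up 51.1% and 30.9% of the BH3-only sum in the libraries labelled CD4creERafl/fl and 39.5% and 12.6% in ERafl/fl. These sums are descriptions of genes chosen with earlier results known, and with 2 libraries against 2 no exact two-sided permutation p can go below 0.33.

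**Figure D3:**
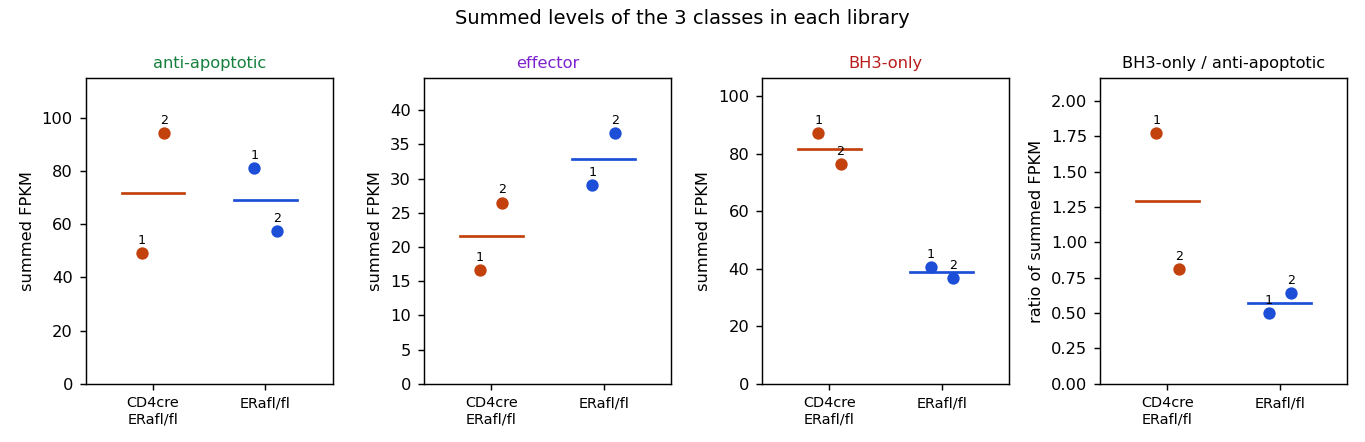
Summed FPKM of the anti-apoptotic, effector and BH3-only members (first 3 panels) and the ratio of the BH3-only to the anti-apoptotic sum (last panel), for the libraries labelled CD4creERafl/fl (left, orange) and ERafl/fl (right, blue). Points are libraries and lines group means, with axes from 0. The BH3-only sum is 87.1 and 76.5 FPKM against 40.7 and 36.9, and the ratio separates the groups only narrowly, at 0.813 against 0.643.

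The members' promoters were read for letters that the targeted receptor and known inducers bind. The table from RefSeq (GRCm38.p6) held 16 promoters for 9 of the members, each 300 bases long, from 250 before to 50 after a start site, with a median GC content of 61% against 52.7% over all 32851 promoters. On both strands, the full estrogen response element, a palindrome with a spacer, was in 0 of the 16 and in 0.07% of all promoters. A single arm of it, AGGTCA, was in 1 promoter each of Bcl2l1 and Bmf and in 16.3% of all. The forkhead core GTAAACA was in 1 promoter each of Bbc3 and Bcl2l11 and in 3.65% of all. The GC box GGGCGG was in 10 of the 16 (35.7% of all), CCAAT in 5 (37.4%), the E-box CACGTG in 2 (7.15%) and the p53 decamer in 2, of Bax and Bmf (8.36%). AGGTCA can overlap the full element, and the other motifs were counted independently of each other. The 4 promoters with AGGTCA or GTAAACA are shown because these letters are named above, with the match on either strand in capitals.
Bbc3 (chr7:16310011-16310310, + strand): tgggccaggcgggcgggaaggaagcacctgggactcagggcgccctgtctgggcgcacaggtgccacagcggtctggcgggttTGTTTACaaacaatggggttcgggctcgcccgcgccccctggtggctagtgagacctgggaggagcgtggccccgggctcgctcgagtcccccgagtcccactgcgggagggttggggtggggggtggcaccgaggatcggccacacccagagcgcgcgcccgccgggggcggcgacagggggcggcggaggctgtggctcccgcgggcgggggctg
Bcl2l11 (chr2:128125788-128126087, + strand): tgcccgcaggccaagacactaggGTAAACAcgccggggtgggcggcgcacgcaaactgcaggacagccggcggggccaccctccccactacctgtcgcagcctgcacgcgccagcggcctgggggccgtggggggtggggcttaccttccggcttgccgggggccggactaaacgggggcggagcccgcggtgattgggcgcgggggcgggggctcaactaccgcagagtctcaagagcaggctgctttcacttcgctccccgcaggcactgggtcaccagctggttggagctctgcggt
Bmf (chr2:118549637-118549936, - strand): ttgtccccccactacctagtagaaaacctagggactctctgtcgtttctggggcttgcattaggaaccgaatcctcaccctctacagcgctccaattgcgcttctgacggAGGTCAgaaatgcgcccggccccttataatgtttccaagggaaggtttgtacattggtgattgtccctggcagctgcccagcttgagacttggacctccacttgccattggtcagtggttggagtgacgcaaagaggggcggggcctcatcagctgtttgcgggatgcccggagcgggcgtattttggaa
Bcl2l1 (chr2:152828440-152828739, - strand): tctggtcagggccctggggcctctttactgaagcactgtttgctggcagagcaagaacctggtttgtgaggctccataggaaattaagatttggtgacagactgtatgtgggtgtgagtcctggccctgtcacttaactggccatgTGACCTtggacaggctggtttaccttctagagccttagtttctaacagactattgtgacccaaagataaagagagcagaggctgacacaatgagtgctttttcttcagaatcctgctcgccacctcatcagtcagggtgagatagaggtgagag
In Bcl2l11 and Bmf the start site lies within 1 base of the start of a transcript listed in the table. In Bbc3 it lies 645 bases from the nearest such start, so this is an alternative promoter. In Bcl2l1 it lies 2177 bases from the nearest known start. Only 2 of the 4 transcripts listed for Bcl2l1 had a known start, so another listed transcript could begin closer. No binding was measured here, and a match is no evidence of a bound site.

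Of 15 other family genes on a list, 14 were in the table and 10 were tested, with 8 higher and 2 lower means, 5 higher and 0 lower without overlap, and 0 called. Over all tested genes 23.2% were higher and 25.7% lower without overlap, and 46.4% had higher means. The list's median log2 fold change was 0.49, beside -0.07 for all genes tested. Bcl2a1b, an anti-apoptotic gene that activated leukocytes induce through NF-kB, had 62.64 and 121 FPKM in the libraries labelled CD4creERafl/fl and 49.4 and 37.12 in ERafl/fl, with a log2 fold change of 1.01 ± 0.41 (SE, n = 2 each; limma adjusted p = 0.318). Bcl2a1a had 13.92 and 22.54 FPKM, against 9.28 and 11.39. Bcl2a1d had 47.52 and 89.03 FPKM, against 26.94 and 71.83, with overlap. The mouse Bcl2a1 genes are near-identical copies, so the division of fragments among them is uncertain. Hrk, a BH3-only gene best known from neurons, had 4.21 and 1.94 FPKM, against 0.59 and 0.05 (limma adjusted p = 0.317), and both ERafl/fl values are under 3 estimated fragments. Bnip3, whose product acts in the removal of mitochondria, had 4.56 and 2.05 FPKM, against 3.28 and a listed 0. Bok, Bik, Bcl2l14 and Bcl2l15 were under the filter, at no more than 2.55 FPKM in any library.

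On a list of mitochondrial death pathway genes, most of them downstream of Bax and Bak1, 15 of 15 genes were tested. Means were higher for 4 and lower for 11, with 2 higher and 5 lower without overlap (23.2% and 25.7% over all tested genes), and 0 called. The list also holds Vdac1, Vdac2 and Vdac3, channels of the outer membrane itself, which all had lower means. It further holds the inhibitors of apoptosis Xiap, with a higher mean, and Birc2, Birc3 and Birc5, with lower means. Since it mixes genes that promote and oppose death, its counts give the pathway no direction. The list's median log2 fold change was -0.21, beside -0.07 for all genes tested. Htra2, a protease that leaves the mitochondria and binds inhibitors of caspases, had 26.51 and 31.05 FPKM in the libraries labelled CD4creERafl/fl and 7.45 and 13.9 in ERafl/fl. Its log2 fold change was 1.40 ± 0.42 (SE, n = 2 each; limma adjusted p = 0.216). Vdac1, a channel of the outer mitochondrial membrane, had 10.79 and 7.93 FPKM, against 14.1 and 17.75. Endog, a mitochondrial nuclease, had 102.5 and 139.9, against 160 and 164.9. Birc5, the gene of survivin, which dividing cells express, had 8.12 and 14.89, against 11.89 and 50.22, with overlap. Cycs, the gene of cytochrome c itself, had 45.58 and 40.92 FPKM, against 49.1 and 49.16, a small difference in level although the groups did not overlap.

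Known inducers and stability regulators of the members gave 7 higher and 10 lower means among 17 tested of 18 listed, with 2 higher and 6 lower without overlap (23.2% and 25.7% of all tested genes) and 0 called. Their median log2 fold change was -0.09, close to -0.07 for all genes tested. Foxo1, a forkhead factor of resting T cells, had 2.49 and 3.19 FPKM in the libraries labelled CD4creERafl/fl and 11.76 and 4.56 in ERafl/fl (log2 fold change -1.14 ± 0.56, SE, n = 2 each; limma adjusted p = 0.397). Stat5b, which carries survival signals from cytokine receptors to Bcl2 and other genes, had 9.84 and 5.77 FPKM, against 15.37 and 13.24. Mapk8, a stress kinase that acts on Bim and Bmf proteins, had 3.16 and 4.73, against 2.02 and 1.06. E2f1, a cell cycle factor, had 131.6 and 55.36, against 60.65 and 46.77. The p53 gene Trp53 had 9 and 12.45 FPKM, against 12.93 and 20.34, and Foxo3 had 1.38 and 4.32, against 3.46 and 2.59. Both are inducers of Bbc3, and Trp53 was lower without overlap while Foxo3 overlapped.

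**Figure D4:**
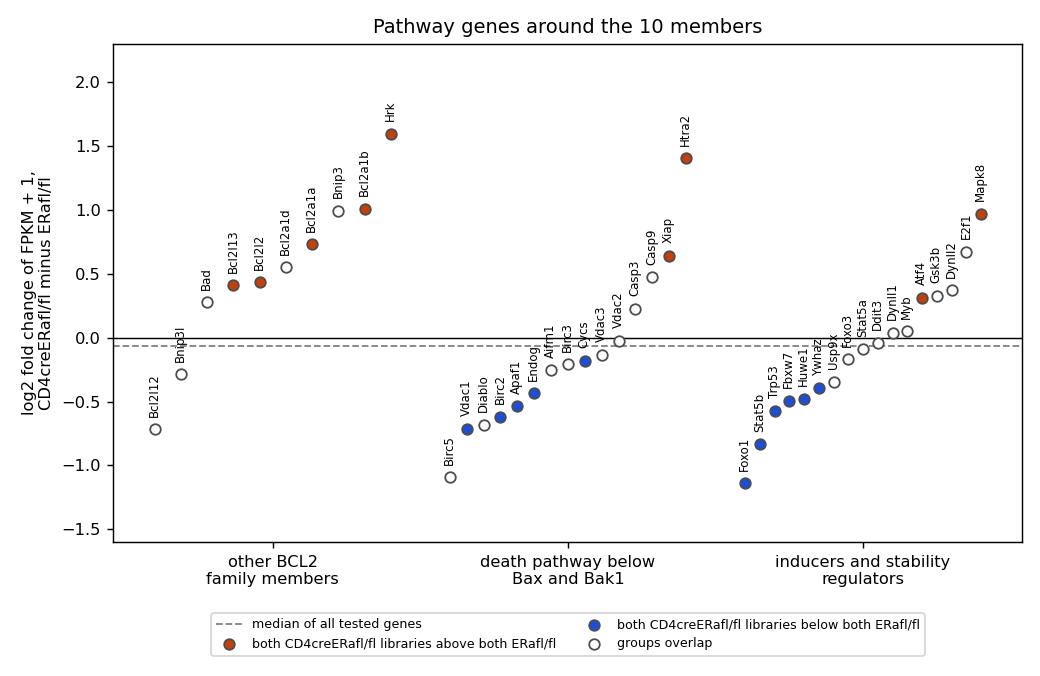
Log2 fold change of FPKM + 1, CD4creERafl/fl minus ERafl/fl (y axis), for each tested gene of 3 lists around the members, in rising order within a list. Orange points are genes with both libraries labelled CD4creERafl/fl above both ERafl/fl libraries, blue points the reverse, and open points overlap, with the median of all tested genes (-0.07) dashed. Hrk and Htra2 have the highest values, at 1.6 and 1.40.

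Set against T cell marker RNA instead of all RNA, Bbc3 had the highest estimate among the members and Bcl2l1 the lowest. This order was largely fixed beforehand, since dividing a library by 1 factor moves all its genes alike apart from the pseudocount. When each library was divided by the geometric mean of its 20 T cell markers, the log2 fold change over all genes had a median of 2.02, and limma called 69.5% of genes higher and 0.279% lower. On that scale 7 of the 10 members were called higher, which is near that background, and Bax, Bak1 and Bcl2l1 were not (adjusted p = 0.0552, 0.119 and 0.586). Beside that median of 2.02, Bbc3 stood at 4.03, Pmaip1 at 3.14, Mcl1 at 2.56, Bcl2 at 2.06 and Bcl2l1 at 0.48. Bcl2l11, Bbc3, Pmaip1 and Bmf kept a value above 0 under all the scalings and with any 1 library left out. Their groups did not overlap, so leaving out 1 library could not change the sign. T cell scaling, which moved the median of all genes to 2.02, could not turn them negative either. Bcl2l1 and Bak1, lower without overlap, stayed below 0 with any 1 library left out but not on the T cell scale. Bcl2, Mcl1, Bax and Bid each changed sign with some library left out.

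**Figure D5:**
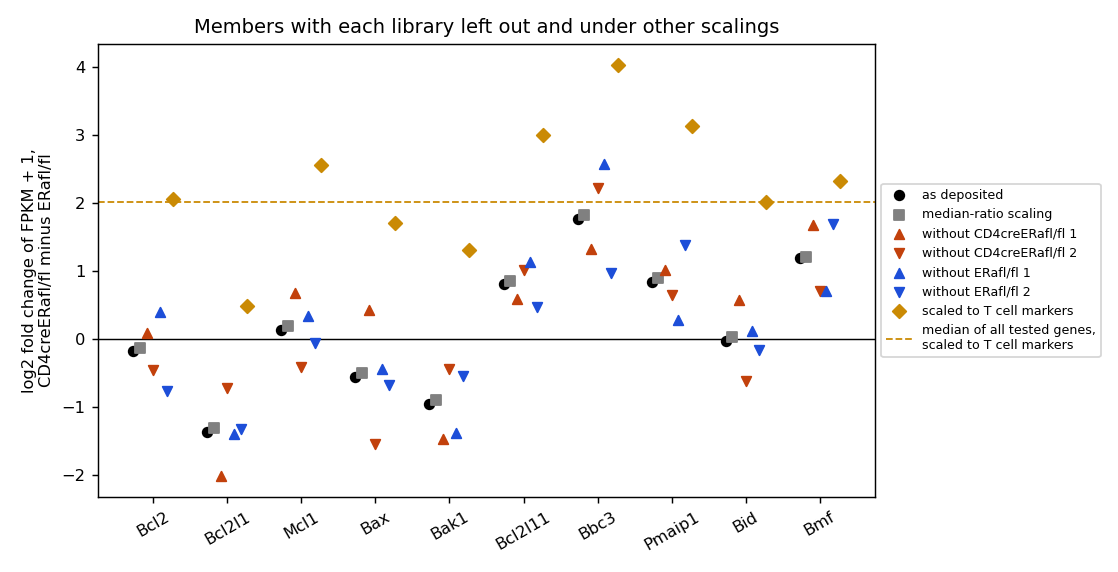
Log2 fold change of FPKM + 1, CD4creERafl/fl minus ERafl/fl (y axis), of each member as deposited (black), after median-ratio scaling (grey), with 1 CD4creERafl/fl (orange triangles) or ERafl/fl library (blue triangles) left out and scaled to T cell markers (yellow diamonds). The dashed line is the median of all tested genes on the last scale, 2.02. Bbc3 is highest as deposited (1.77) and on the T cell scale (4.03), and Bcl2l1 lowest (-1.36 and 0.48), an order that the scaling largely keeps by construction.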

How the data were processed

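RNA was isolated from sorted CD4 T cells and sequenced, per the labels' protocols. FPKM values were computed by the authors and deposited as 1 table of 16230 genes. The submitters' processing notes name HISAT, Bowtie2, RSEM and mm10, and versions and strand use are not given in the sources used here. RSEM divides shared fragments by estimate, so an exact 0 can be a failed estimate and is written as listed at 0.

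Values entered limma (version 3.58.1, R 4.3.3) as log2(FPKM + 1), a scale that understates the change of low genes, for the 12896 genes whose mean reached 1 FPKM. Group was the only term, with an empirical Bayes trend, two-sided tests and Benjamini-Hochberg adjustment at 0.05. The procedure was tested on simulated data. Their spread between libraries was chosen and no cell type differed, so the test does not cover the noise and cell mix of these libraries. Depth was estimated for genes with 1 transcript over 800 bases, where FPKM times length (less 40 bases) fell within 0.2 of a whole fragment for 76.3% to 77.6% of low values. The depths and the 40 bases were themselves chosen for the closest match to whole fragments, so this share is no separate check of them. Fragment numbers and the limit of 3 for a count of 0 cover counting error only. Gene identifiers matched GRCm38.p6 for 16183 genes, and mm10 carries the same coordinates.

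The members, gene lists and tests were chosen with earlier results of these data known. Of each pathway list the text names the 4 genes with the smallest unadjusted p, and of the marker lists only those needed. Bcl2a1d, Cycs, Xiap, Birc2, Birc3, Trp53, Foxo3, the genes under the filter and the markers named were chosen after their values were seen. One further gene of the mitochondrial death pathway was left out of its list and counts. Alternatives were each library left out, another pseudocount, filters, scalings, no trend, a replicate block and voom weights.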

Additional observations from a re-analysis of the deposited data

How the results depend on the processing

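Over 12 alternatives, with scaling to T cell markers set aside, 8 of 114 member values changed sign and no member passed the threshold (lowest adjusted p 0.135, Bbc3 with voom weights). Bcl2l11, Bbc3, Pmaip1 and Bmf stayed above 0, and Bcl2l1 and Bak1 stayed below 0. The groups of these members did not overlap, so leaving out 1 library could not change their sign. Bcl2 became 0.40 without ERafl/fl 1 and 0.09 without the first library labelled CD4creERafl/fl. Mcl1 became -0.06 without ERafl/fl 2 and -0.41 without the second library labelled CD4creERafl/fl. Bax became 0.42 without the first library labelled CD4creERafl/fl. Bid became 0.13 without ERafl/fl 1, 0.58 without the first library labelled CD4creERafl/fl and 0.030 with median-ratio scaling. With 1 library left out, the ranges were -0.76 to 0.40 for Bcl2, -0.41 to 0.68 for Mcl1, -1.53 to 0.42 for Bax and -0.62 to 0.58 for Bid. Scaled to T cell markers, the values were 2.06 for Bcl2, 0.48 for Bcl2l1, 1.71 for Bax, 1.30 for Bak1 and 2.02 for Bid, and the class medians 2.06 (anti-apoptotic), 1.51 (effector) and 3.0 (BH3-only), beside 2.02 for all genes, because every gene of a library is divided by 1 factor. The 2 higher and 5 lower genes of limma became 8957 and 36 on that scale and 154 and 54 with voom weights. They became 0 and 0 with a pseudocount of 0.1, no filter, no trend, the replicate block or any library left out (0 to 0), and 0 higher with a mean of at least 5 FPKM. For these, 1813, 2190, 1996, 1888, 1234 to 2042 and 1447 genes had an unadjusted p under 0.05. The cause was not tested. Under the replicate block no member was called. Differences between replicates 1 and 2 were uncorrelated between the groups (r = -0.00161 across genes). Such a correlation cannot tell whether libraries of equal number shared a batch, and the labels do not say. Depth (510000 to 709500 estimated fragments) limits Bcl2l1, Bmf, Bax and Bid most, at 10.6 fragments or fewer in each library.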
